A study of Homo sapiens with 8 samples.

Results

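The respiratory chain and ATP synthase genes examined here encode the nuclear-encoded subunits of the 5 enzyme complexes of oxidative phosphorylation. The group was picked with earlier results of these data known, and its members were then taken by symbol alone: names starting NDUFA, NDUFB, NDUFC, NDUFS or NDUFV (complex I), SDHA to SDHD (complex II), UQCR or CYC1 (complex III), COX4I, COX5, COX6, COX7 or COX8 (complex IV) and ATP5 (complex V, the ATP synthase), without the NDUFAF assembly factors. This gave 80 of the 17687 genes with a named probe set, 33 of complex I, 3 of complex II, 9 of complex III, 17 of complex IV and 18 of complex V, each with a single probe set. Of the 80, 68 are subunits that most human cells use. They are called core subunits here, and accessory subunits of complex I are counted among them. Another 6 are isoforms restricted to certain tissues (COX4I2, COX6A2, COX6B2, COX7A1, COX7B2 and COX8C). The last 6 are other entries with such a symbol: the divergent transcript NDUFV1-DT, the readthrough ATP5MF-PTCD1, the retrocopies UQCRHL and ATP5MGL, the ATP synthase inhibitor ATP5IF1 and the supercomplex factor COX7A2L.

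RNA came from CUTLL1, an established line of human T-cell leukemia in which a chromosomal translocation keeps NOTCH1 active, so all groups carry that translocation. The cells had received a lentiviral vector expressing the miRNAs clustered in MIR17HG (called cluster cells here), or the same vector without them (Empty-V), both with a GFP marker by which transduced cells were sorted, and were kept for 2 days with 1 µM of a γ-secretase inhibitor (GSI), which blocks the release of active NOTCH1, or with its solvent DMSO. The groups are therefore cluster cells with GSI, cluster cells with DMSO, Empty-V cells with GSI and Empty-V cells with DMSO, with 2 Clarion S arrays each, numbered set 1 and set 2 and described as independent experiments. All values below are log2 values as deposited, and pairs of values are given in the order set 1, set 2.

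Electrons from NADH enter at complex I and those from succinate at complex II, pass through complex III and cytochrome c to complex IV, and are handed to oxygen there. Complexes I, III and IV pump protons across the inner mitochondrial membrane, and complex V lets them flow back through its rotating c-ring to make ATP. Most subunits come from nuclear genes, while a few membrane subunits come from mitochondrial DNA and are no members here. Promoters of these nuclear genes are known for sites of NRF1, ETS factors such as GABPA, and YY1.

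The miRNAs that the vector carries are shown because they set the cluster cells apart, with the seed, bases 2 to 8, in capitals (mature sequences from RefSeq, GRCh38.p14, chromosome 13 from 91350618 to 91351382 on the plus strand). Their 6 sequences hold 4 seeds, since miR-17 and miR-20a share one and miR-19a and miR-19b another.
miR-17-5p: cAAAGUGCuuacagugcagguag
miR-20a-5p: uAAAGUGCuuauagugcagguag
miR-18a-5p: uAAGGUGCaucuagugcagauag
miR-19a-3p: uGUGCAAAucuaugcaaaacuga
miR-19b-3p: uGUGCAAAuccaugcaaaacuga
miR-92a-3p: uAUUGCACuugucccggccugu

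Promoters are shown for 4 of the genes called below, the 3 with the largest differences in Empty-V cells (UQCRC1, NDUFA11 and UQCR10) and the leading gene of complex V (ATP5F1A), chosen after their values were seen, with a motif match in capitals (RefSeq, GRCh38.p14, from 250 bases before to 50 after a gene start). For UQCRC1, which encodes core protein 1 of complex III, the window is chr3:48609597-48609896 on the minus strand. That of UQCR10, a small complex III subunit, is chr22:29767119-29767418 on the plus strand. That of NDUFA11, a membrane-arm subunit of complex I, is chr19:5903741-5904040 on the minus strand. The capitals in these 3 mark a match to the NRF1 motif, which starts at -47, -8 and -98 from the gene start. For ATP5F1A, the α subunit of the ATP synthase head, the window chr18:46098247-46098546 on the minus strand holds the ETS motif CCGGAAG, read from the other strand, at -48 from its start, while a second annotated start had no match to it.
UQCRC1: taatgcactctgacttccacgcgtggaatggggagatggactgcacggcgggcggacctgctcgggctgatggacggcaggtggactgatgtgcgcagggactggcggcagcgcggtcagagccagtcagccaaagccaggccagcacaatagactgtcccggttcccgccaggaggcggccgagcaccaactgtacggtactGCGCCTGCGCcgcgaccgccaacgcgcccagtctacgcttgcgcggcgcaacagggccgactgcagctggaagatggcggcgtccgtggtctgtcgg
UQCR10: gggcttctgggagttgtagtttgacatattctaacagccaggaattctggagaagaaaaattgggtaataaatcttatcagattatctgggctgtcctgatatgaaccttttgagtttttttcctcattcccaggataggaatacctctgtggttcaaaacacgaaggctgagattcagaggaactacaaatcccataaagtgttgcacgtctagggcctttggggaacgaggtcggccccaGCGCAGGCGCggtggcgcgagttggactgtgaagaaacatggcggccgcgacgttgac
NDUFA11: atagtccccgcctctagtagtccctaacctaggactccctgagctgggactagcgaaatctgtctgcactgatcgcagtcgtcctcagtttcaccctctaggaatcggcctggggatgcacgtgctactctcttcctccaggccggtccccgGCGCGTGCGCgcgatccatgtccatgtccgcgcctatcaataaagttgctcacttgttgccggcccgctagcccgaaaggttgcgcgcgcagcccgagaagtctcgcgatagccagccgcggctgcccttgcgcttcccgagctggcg
ATP5F1A: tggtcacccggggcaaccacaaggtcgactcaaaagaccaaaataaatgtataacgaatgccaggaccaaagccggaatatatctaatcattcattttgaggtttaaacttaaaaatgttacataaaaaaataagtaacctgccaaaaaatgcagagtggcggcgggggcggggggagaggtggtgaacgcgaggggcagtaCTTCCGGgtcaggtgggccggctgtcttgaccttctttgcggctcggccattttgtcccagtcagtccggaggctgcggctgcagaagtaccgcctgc
On either strand, the NRF1 motif was found in 14 of 68 windows of core subunit genes (20.6%), against 5.78% of all 35116 windows of this length. The ETS motif was found in 27.9% of core windows and 10.3% of all windows, and the YY1 motif AAGATGGC in 16.2% and 2.89%. The E-box CACGTG was found in 10.3% of core windows and 7.26% of all windows. Of the 13 called genes 12 had a window. The NRF1 motif was held by 3 of those 12, the 3 shown above, and by 14 of 57 core genes with a window. For the ETS motif it was 2 of 12 and 18 of 57, and for YY1 2 of 12 and 10 of 57. For the E-box it was 3 of 12 and 7 of 57. A link between a motif and the calls was not tested. Each motif was counted on its own, whether or not it overlapped another. These matches describe letters only, and 57 of the 68 core genes had a window.

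NRARP, a direct NOTCH1 target, was lower with GSI, at a log2 difference of -6.05 in cluster cells (limma adjusted p = 3.11e-06) and -5.75 in Empty-V cells (limma adjusted p = 3.27e-06). HES1 differed by -2.70 in cluster and -3.745 in Empty-V cells, NOTCH3 by -1.405 and -2.21, and DTX1 by -4.29 and -3.505, all called. MYC differed by -0.345 and -0.63 without a call (limma adjusted p = 0.444 and 0.079). Under GSI none of these 5 genes was called between the vectors. Cluster minus Empty-V was 0.78 for HES1, 0.90 for NOTCH3, -0.645 for DTX1, -0.075 for NRARP and -0.13 for MYC. All 10 T-lineage markers lay above the median probe set mean of 5.31 and all 4 myeloid markers below it, while 3 of 4 B-cell, 1 of 4 erythroid and 2 of 5 stromal and epithelial markers lay above, at 3.38 to 6.53, 3.72 to 5.56 and 2.88 to 8.23. Some T-lineage markers moved with GSI. CD2 differed by 1.5 in cluster cells and 2.95 in Empty-V cells, CD5 by 0.83 and 1.23, and PTCRA, of immature T cells, by -1.96 and -1.80, all called (limma), with CD5 in cluster cells at an adjusted p of 0.049 (0.135 with the block). CD1A was called in Empty-V cells, at 0.91 (adjusted p = 0.0345, 0.073 with the block). Between the vectors under GSI, cluster minus Empty-V, CD2 differed by -1.14 (adjusted p = 0.0385, 0.0989 with the block). The part of these markers in the results was not tested. Replicate arrays had r = 0.994 to 0.995 across probe sets, which are not independent replicates, and array medians lay between 5.3 and 5.36. Of the 80 members, 72 lay above the median probe set mean, and the 8 below it were the 6 tissue-restricted isoforms, NDUFV1-DT and ATP5MF-PTCD1. All 80 were tested, with no filter on low values. Since each array was scaled to a common distribution, less of these RNAs per cell cannot be told apart from more of other RNAs, nor from a change in the mix of cells.

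In Empty-V cells, GSI lowered core subunits of complexes I, III, IV and V. Of 80 members, 13 were called lower and 0 higher at an adjusted p below 0.05 (limma, Benjamini-Hochberg over 21448 probe sets), against a background of 3.66% of probe sets called lower and 3.8% called higher. Called lower were 6 of 32 core subunits of complex I, 0 of 3 of complex II, 4 of 8 of complex III, 1 of 10 of complex IV and 2 of 15 of complex V. The shift was broader than the calls. The median log2 difference was -0.40 over the 80 members and -0.47 over the 68 core subunits, against 0.01 over all probe sets, and 71 members lay below 0. The arrays with GSI lay below both DMSO arrays for 58 members, 54 of them core subunits, against a background of 24.5% of probe sets, and above both for 6, against 25.6%. Over core subunits the median was -0.46 for complex I, -0.33 for complex II, -0.71 for complex III, -0.47 for complex IV and -0.52 for complex V.

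**Figure D1:**
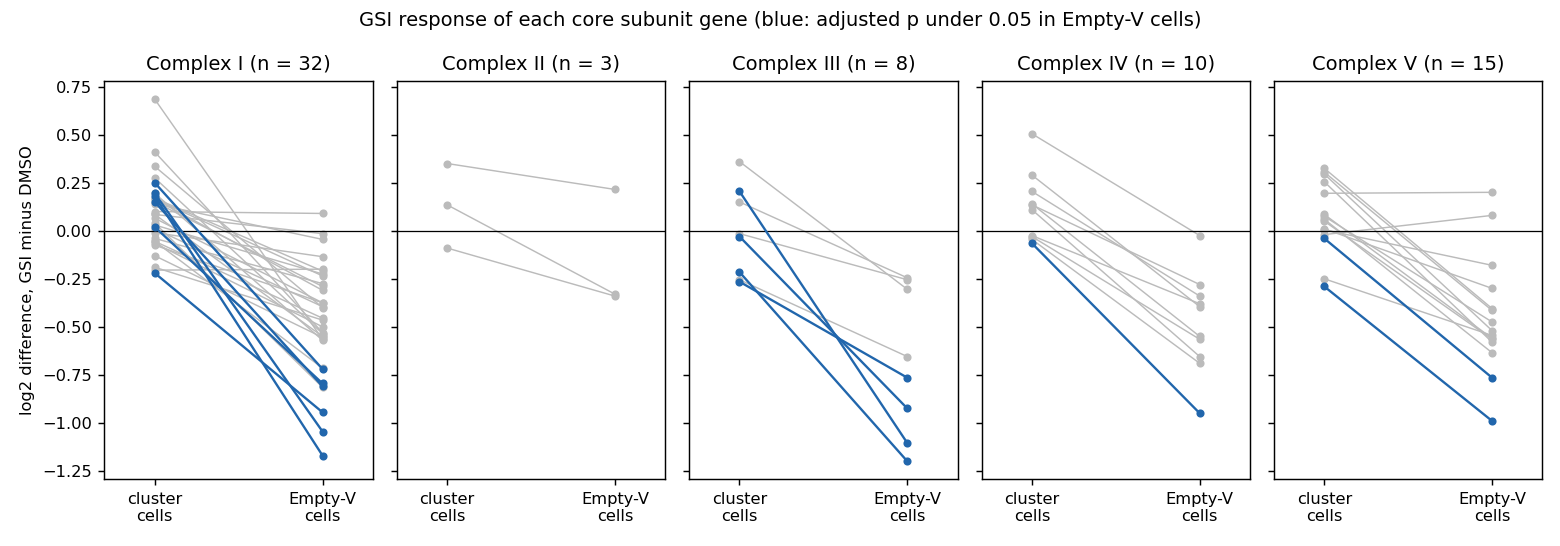
Log2 difference between GSI and DMSO for each core subunit gene (1 line a gene) in cluster cells, left, and Empty-V cells, right, in a panel for each complex. Blue lines are the 13 genes called lower in Empty-V cells. Most lines lie near 0 on the left, where the median over core subunits is 0.08, and below 0 on the right, where it is -0.47.

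Complex III, which passes electrons from ubiquinol to cytochrome c, had the lowest median of the 5 complexes. UQCRC1 (chromosome 3 from 48599002 to 48609646) had 11.67 and 11.60 with GSI and 11.92 and 11.78 with DMSO in cluster cells, against 11.15 and 10.82 with GSI and 12.04 and 12.33 with DMSO in Empty-V cells. Both Empty-V arrays with GSI were the lowest of the 8. The difference in Empty-V cells was -1.20 (SE 0.18, 2.30-fold lower, adjusted p = 0.00539). UQCR10 had 10.75 and 10.41 with GSI and 10.20 and 10.55 with DMSO in cluster cells, which overlapped. In Empty-V cells it had 9.65 and 9.43 with GSI, against 10.57 and 10.72 with DMSO, a difference of -1.10 (SE 0.20, 2.15-fold lower, adjusted p = 0.0112). UQCRH, the hinge protein, had 9.86 and 9.52 with GSI in Empty-V cells, against 10.53 and 10.70 with DMSO (difference -0.93, SE 0.18, adjusted p = 0.0166). CYC1, which encodes cytochrome c1, had 9.32 and 9.46 with GSI in Empty-V cells, against 10.14 and 10.17 with DMSO (difference -0.77, SE 0.18, adjusted p = 0.0331). With the set number as a block the adjusted p of CYC1 was 0.0779, above the threshold. The other core protein, UQCRC2, was not called, with 15.22 and 15.17 with GSI in Empty-V cells, against 15.51 and 15.37 with DMSO (difference -0.24, interval -0.61 to 0.12). The remaining core subunits UQCR11, UQCRB and UQCRQ lay at -0.30, -0.26 and -0.66 without a call.

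Complex I is built from a peripheral arm, which takes electrons from NADH, and a membrane arm, which pumps protons. In the peripheral arm 3 of 13 subunits were called lower and the median difference was -0.40. In the membrane arm 3 of 18 were called, with a median of -0.49. NDUFA11 (chromosome 19 from 5891229 to 5903790) had 11.62 and 11.69 with GSI and 11.41 and 11.54 with DMSO in cluster cells, against 10.78 and 10.07 with GSI and 11.46 and 11.73 with DMSO in Empty-V cells. Its Empty-V arrays with GSI were the lowest of the 8, and the difference was -1.17 (SE 0.23, 2.25-fold lower, adjusted p = 0.0182). NDUFB1, a small membrane-arm subunit, had 11.50 and 11.15 with GSI in Empty-V cells, against 12.33 and 12.41 with DMSO (-1.04, adjusted p = 0.0345). NDUFV1, the flavoprotein that oxidizes NADH, had 11.40 and 11.05 with GSI in Empty-V cells, against 12.07 and 12.27 with DMSO (-0.94, adjusted p = 0.0244). NDUFB3, NDUFA7 and NDUFA2, accessory subunits, differed by -0.81, -0.80 and -0.72, with adjusted p of 0.0343, 0.0216 and 0.0392. With the block, NDUFA11 kept its call (adjusted p = 0.0392), while the adjusted p of NDUFB1, NDUFV1, NDUFB3, NDUFA7 and NDUFA2 was 0.0668, 0.054, 0.0758, 0.0617 and 0.0963. The uncalled subunit furthest below 0 was NDUFB9 at -0.82 (adjusted p = 0.0805), and NDUFB5, at 0.09, was the core subunit of complex I that lay above 0. NDUFA6, with the highest mean value of complex I, had 14.10 and 13.85 with GSI in Empty-V cells, against 14.29 and 14.28 with DMSO, and was not called (interval of the difference -0.67 to 0.05).

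Complex II also belongs to the citric acid cycle. No call was made among SDHA, its flavoprotein, and the membrane anchors SDHC and SDHD. SDHA had 10.26 and 10.45 with GSI in Empty-V cells, against 10.31 and 9.97 with DMSO, which overlapped (difference 0.21, interval -0.19 to 0.62). SDHC had 11.62 and 11.39 with GSI, against 11.79 and 11.90 with DMSO, and SDHD 10.16 and 10.26 with GSI, against 10.35 and 10.73 with DMSO. These do not overlap, with differences of -0.34 (interval -0.73 to 0.05) and -0.33 (interval -0.73 to 0.07).

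In complex IV, cytochrome c oxidase, only the small membrane subunit COX7B was called. COX7B (chromosome X from 77899468 to 77907376) had 10.93 and 10.77 with GSI and 10.83 and 11.00 with DMSO in cluster cells, against 10.07 and 9.63 with GSI and 10.78 and 10.82 with DMSO in Empty-V cells. The 6 arrays outside the Empty-V GSI group lay between 10.77 and 11.00, above both of that group. The difference in Empty-V cells was -0.95 (SE 0.19, 1.93-fold lower, adjusted p = 0.0179). All 10 core subunits lay below 0, from -0.95 for COX7B to -0.02 for COX6C. COX8A, with the highest mean value of the complex, had 14.75 and 14.63 with GSI in Empty-V cells, against 15.14 and 15.03 with DMSO (difference -0.40, adjusted p = 0.236).

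Tissue-restricted isoforms of complex IV replace common ones in heart and muscle, lung or testis. None was called, and their median difference in Empty-V cells was 0.10, with 3 of 6 below 0. COX4I2, the form of lung, had a mean value of 4.94 with GSI and 4.58 with DMSO in Empty-V cells, below the median probe set, while its common paralogue COX4I1 had 10.81 and 10.20 with GSI, against 10.63 and 10.94 with DMSO. The muscle form COX6A2 differed by -0.15 and the common COX6A1 by -0.69 (adjusted p = 0.0896). COX6B2, the testis form, differed by -0.11 and COX6B1 by -0.34. COX7A1, of heart and muscle, differed by 0.27 and COX7A2 by -0.57. COX8C, of testis, differed by 0.42. All 6 isoforms had mean values below the median probe set. COX7A2L, which helps join complexes III and IV, ran the other way from the core subunits. It had 12.96 and 12.99 with GSI and 13.27 and 13.19 with DMSO in cluster cells, against 13.36 and 13.56 with GSI and 13.04 and 13.19 with DMSO in Empty-V cells. Its Empty-V arrays with GSI were the highest of the 8, with a difference of 0.34 that was not called (interval -0.02 to 0.71).

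Complex V has a catalytic head with a central stalk, a peripheral stalk that holds it, and the membrane-bound c-ring. The 4 head and central stalk genes had a median of -0.56, the 3 c-ring genes -0.58, the 4 supernumerary membrane subunits -0.49 and the 4 peripheral stalk genes -0.29. ATP5F1A had 12.77 and 12.72 with GSI and 12.97 and 13.10 with DMSO in cluster cells, against 12.27 and 11.95 with GSI and 13.01 and 13.19 with DMSO in Empty-V cells. Both vectors had GSI arrays below their DMSO arrays, by -0.29 in cluster cells (not called) and by -0.99 in Empty-V cells (SE 0.17, 1.99-fold lower, adjusted p = 0.0106). ATP5F1B, the catalytic β subunit, differed by -0.30 and ATP5F1C, the γ subunit of the central stalk, by -0.57 (adjusted p = 0.069). ATP5MC1, ATP5MC2 and ATP5MC3 encode the same c-ring protein with different import signals. ATP5MC1 had 13.56 and 13.32 with GSI in Empty-V cells, against 14.28 and 14.13 with DMSO (difference -0.77, adjusted p = 0.0244, 0.0665 with the block). ATP5MC2 and ATP5MC3 lay at -0.52 and -0.58 without a call. ATP5PF, with the highest mean value of the complex, differed by -0.18 (interval -0.55 to 0.19). ATP5MG and ATP5PB lay above 0, at 0.20 and 0.08. ATP5IF1, which stops the enzyme from running in reverse, had 10.86 and 10.91 with GSI in Empty-V cells, against 11.20 and 11.20 with DMSO (not called). The retrocopies UQCRHL and ATP5MGL differed by -0.54 and -0.27, but probes for them and for UQCRH and ATP5MG may take up each other's RNA.

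**Figure D2:**
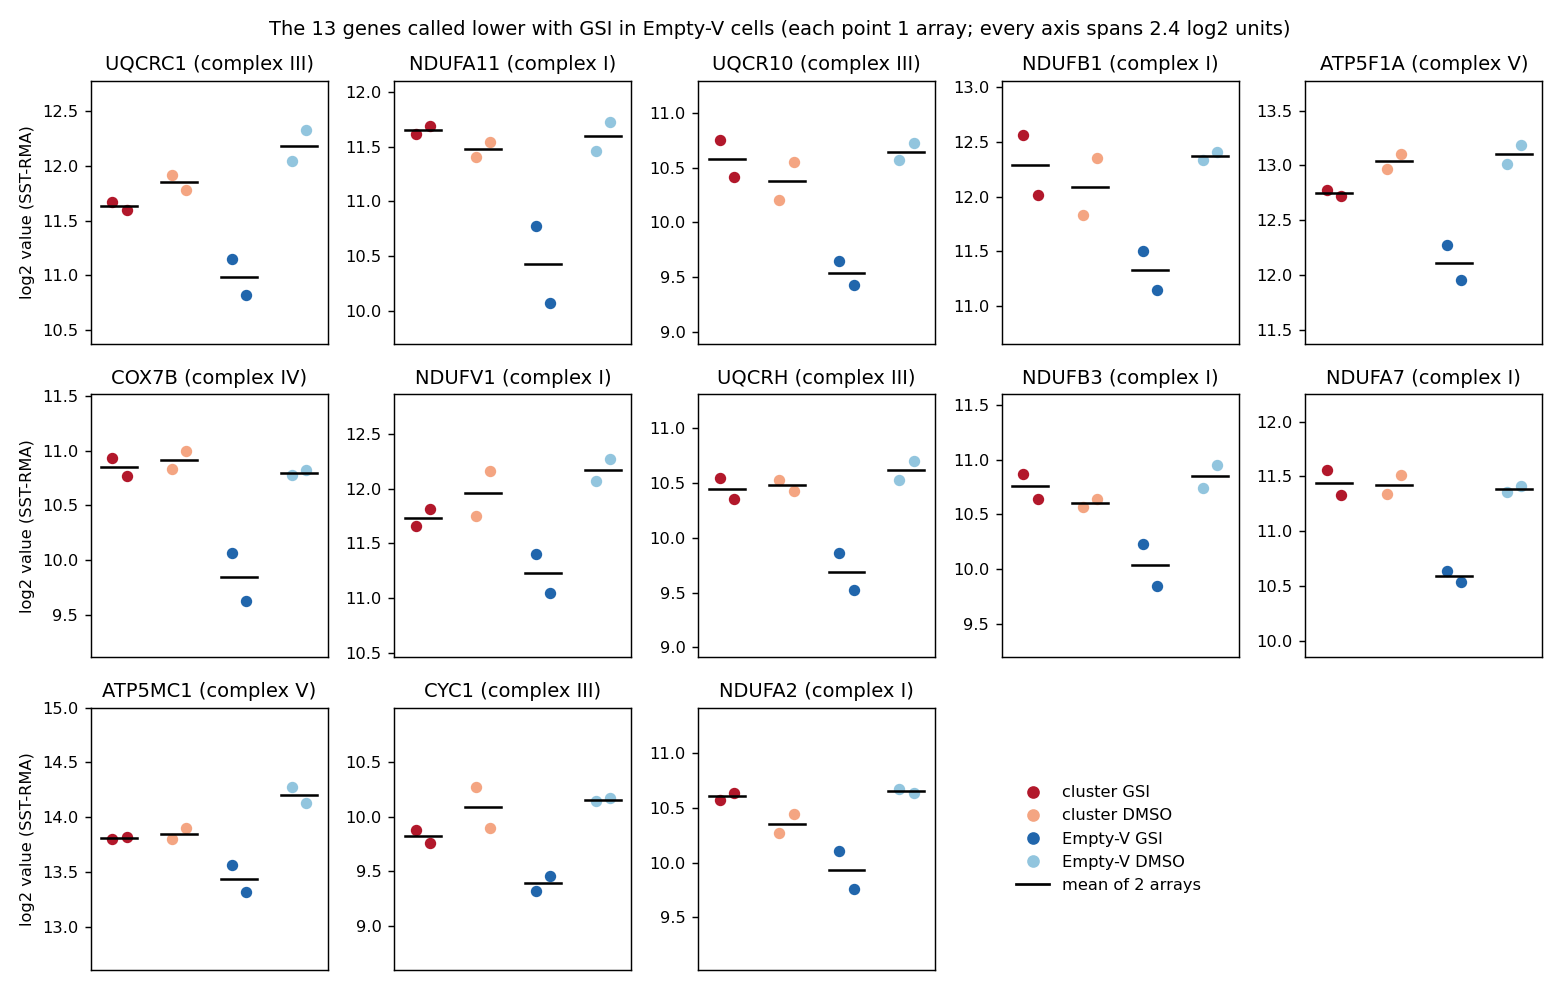
Log2 values of the 13 genes called lower with GSI in Empty-V cells, ordered by size of the difference, with 1 point an array and the mean as a bar. Groups run from cluster GSI through cluster DMSO and Empty-V GSI to Empty-V DMSO. The Empty-V GSI arrays are the lowest points in all 13 panels.

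The count of calls in Empty-V cells rests on few arrays. It was 6 with the set number as a block (UQCRC1, NDUFA11, UQCR10, ATP5F1A, COX7B and UQCRH), 34 when the prior variance followed intensity and the fit was robust, and 0, 3 and 1 without Empty-V DMSO replicate 2, Empty-V DMSO replicate 1 and Empty-V GSI replicate 2, while the median over members stayed between -0.53 and -0.34 when any array was left out.

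In cluster cells GSI moved the same genes little. Of 80 members 0 were called in either direction (limma), against a background of 0.96% called higher and 0.606% lower, and 0 were called with the block or with an intensity trend. At an unadjusted p below 0.05, 2 were higher (NDUFA1 and COX6C) and 0 lower, against 8.07% and 6.42% of all probe sets, so both shares were under their backgrounds. The median difference was 0.08 over members and 0.00 over all probe sets, with 51 members above 0. The arrays with GSI lay above both DMSO arrays for 19 members and below them for 7, against backgrounds of 22.8% and 21.9%, so the share above was near its background and the share below was under it. NDUFA1, a membrane-arm subunit of complex I, had 10.81 and 10.26 with GSI in cluster cells, against 9.61 and 10.09 with DMSO (difference 0.69, interval 0.14 to 1.23, adjusted p = 0.236). COX6C, of complex IV, had 13.00 and 12.58 with GSI, against 12.17 and 12.40 with DMSO (difference 0.51, adjusted p = 0.254). For the most strongly lowered gene in Empty-V cells, UQCRC1, the interval in cluster cells was -0.63 to 0.20. Without cluster GSI replicate 1 the median over members was -0.02.

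**Figure D3:**
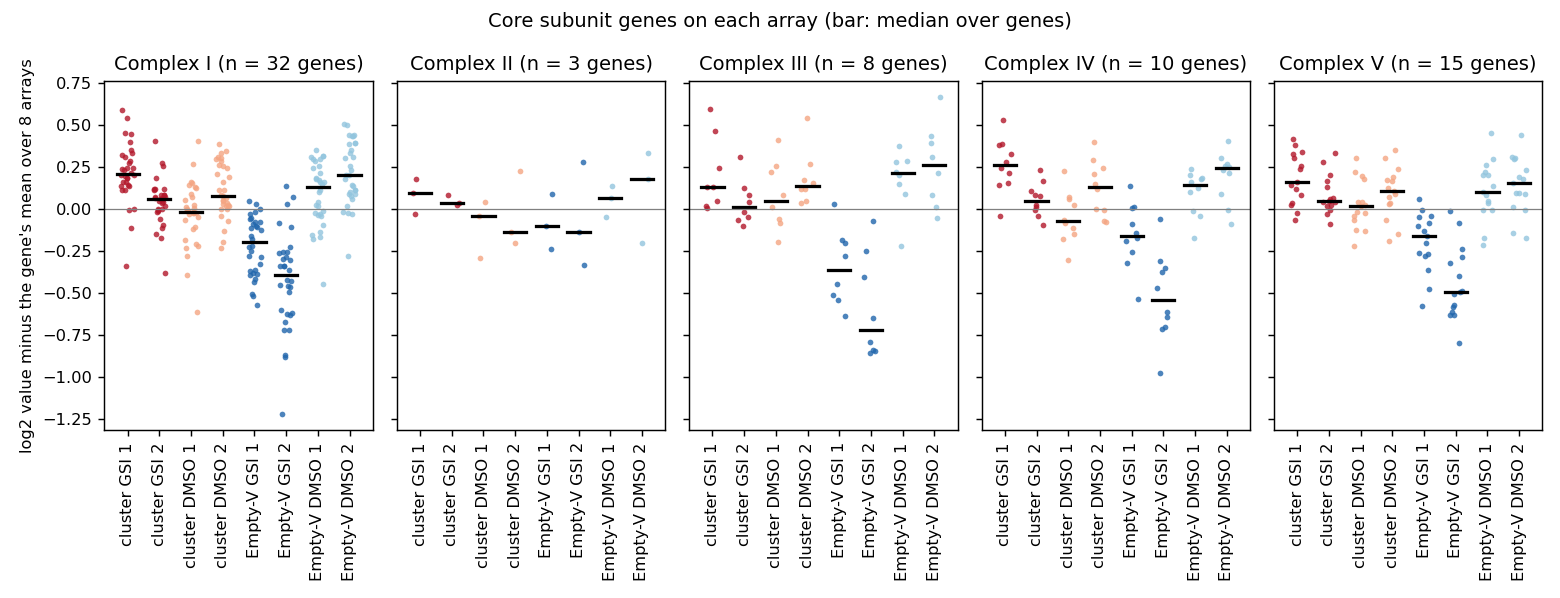
Deviation of each core subunit gene from its own mean over the 8 arrays, on the log2 scale, by array and complex, with a bar at the median over genes. The Empty-V GSI arrays lie lowest in complexes I, III, IV and V, with core medians of -0.19 and -0.44 over all complexes, and replicate arrays differ within every group.

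The array medians over the 68 core subunits, each gene taken as its deviation from its own mean, were 0.20 and 0.05 in cluster cells with GSI and -0.02 and 0.11 in cluster cells with DMSO, against -0.19 and -0.44 in Empty-V cells with GSI and 0.14 and 0.20 in Empty-V cells with DMSO. Replicate 2 was below replicate 1 for 56 of 68 core subunits in cluster cells with GSI, 16 in cluster cells with DMSO, 55 in Empty-V cells with GSI and 21 in Empty-V cells with DMSO. Both Empty-V arrays with GSI were the lowest of all 8 for 43 of 80 members (53.8%), against 10.1% of all probe sets. Among core subunits this held for 18 of 32 in complex I, 1 of 3 in complex II, 7 of 8 in complex III, 6 of 10 in complex IV and 9 of 15 in complex V. COX7A2L was the member with both arrays highest. The GSI arrays lay below DMSO in Empty-V cells and above DMSO in cluster cells, with no overlap in either, for 16 members (20.0%), against 3.45% of all probe sets. These were NDUFA1, NDUFA2, NDUFA6, NDUFA8, NDUFA11, NDUFB2, NDUFB11, NDUFS5, NDUFS6, SDHD, COX7C, COX8A, ATP5MC2, ATP5MC3, ATP5MJ and ATP5PO, and none was of complex III. Taken singly, 58 members lay below DMSO in Empty-V cells, against 24.5% of all probe sets. In cluster cells 19 lay above DMSO, near the background of 22.8%. The joint count therefore does not by itself show a rise in cluster cells.

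Under GSI, cluster cells had higher values of respiratory chain genes than Empty-V cells. Of 80 members 5 were called higher and 0 lower (limma), against a background of 0.499% called higher and 0.573% lower, and the median difference was 0.40 over members and -0.01 over all probe sets, with 73 members above 0. The cluster arrays lay above both Empty-V arrays for 58 members, 54 of them core subunits, and below them for 2, against backgrounds of 22.2% and 24.5%. This comparison shares the Empty-V GSI arrays with the GSI response of Empty-V cells, so the pair are not independent. The 5 called genes were NDUFA11 at 1.23 (11.62 and 11.69 in cluster cells, against 10.78 and 10.07 in Empty-V cells, SE 0.23, adjusted p = 0.0481), UQCR10 at 1.04 (10.75 and 10.41, against 9.65 and 9.43 in Empty-V cells, adjusted p = 0.0479) and COX7B at 1.00 (adjusted p = 0.0478). ATP5MC3 (chromosome 2 from 175176258 to 175181710) had 11.46 and 11.38 in cluster cells, against 10.47 and 10.55 in Empty-V cells, a difference of 0.91 (SE 0.17, adjusted p = 0.0492). NDUFA7 (chromosome 19 from 8308595 to 8321375) had 11.56 and 11.33 in cluster cells, against 10.64 and 10.54 in Empty-V cells, a difference of 0.86 (SE 0.17, adjusted p = 0.0492). Core medians were 0.40 for complex I, 0.22 for complex II, 0.61 for complex III, 0.46 for complex IV and 0.47 for complex V. SDHD, with the smallest p of complex II, had 10.49 and 10.48 in cluster cells, against 10.16 and 10.26 in Empty-V cells (difference 0.28, interval -0.13 to 0.68). COX7A2L was lower, at -0.48 (adjusted p = 0.162). All 5 calls lie just under the threshold. With the block 0 members were called, with adjusted p of 0.113, 0.120, 0.117, 0.125 and 0.129 for NDUFA11, UQCR10, COX7B, ATP5MC3 and NDUFA7, and 0 were called without any one of the 8 arrays, where the median over members lay between 0.31 and 0.50.

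With NOTCH1 signalling active, under DMSO, 0 of 80 members were called between cluster and Empty-V cells (limma), against a background of 0.0186% called higher and 0.0233% lower, and 0 were called with the block or with an intensity trend. At an unadjusted p below 0.05, COX7A1 was higher and NDUFA1, NDUFB2 and ATP5MC2 lower, against 4.51% and 5.24% of all probe sets, so neither count exceeded its background share. The median difference was -0.07, with 27 members above 0. The cluster arrays lay above both Empty-V arrays for 11 members and below them for 24, against backgrounds of 19.4% and 22.1%. COX7A1, which had 5.44 and 4.57 in cluster cells with DMSO, against 3.98 and 3.95 in Empty-V cells with DMSO, differed by 1.04 (adjusted p = 0.278), and its arrays lie mostly below the median probe set mean. ATP5MC2 had 13.76 and 13.83 in cluster cells, against 14.28 and 14.28 in Empty-V cells (-0.48, adjusted p = 0.431).

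The difference between the GSI responses of the vectors, cluster minus Empty-V, was tested directly. Of 80 members 0 were called (limma), against a background of 0.0% called higher and 0.028% lower, and at an unadjusted p below 0.05 there were 30 higher and 1 lower, against 6.57% and 6.01% of all probe sets. With the block 0 were called, and with the intensity trend 4 were called higher (NDUFA11, UQCR10, ATP5MC2 and ATP5PO). The median over members was 0.46, with 70 above 0. The largest were NDUFA11 at 1.35 (interval 0.61 to 2.09, adjusted p = 0.217), UQCR10 at 1.31 (interval 0.68 to 1.94, adjusted p = 0.216) and NDUFA1 at 1.25 (adjusted p = 0.245). A response called in Empty-V cells and not in cluster cells is therefore not shown to differ between them for any single gene.

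Across both vectors 4 of 80 members were called lower with GSI and 0 higher (limma). The background was 3.48% called lower and 4.35% higher, so the share called lower was near its background. The median difference was -0.156 over members and 0.003 over all probe sets, with 67 of 80 members below 0. At an unadjusted p below 0.05 (limma), 19 members were lower and 1 higher, against 2388 and 2569 of all 21448 probe sets. UQCRC1 fell by 0.71 on the log2 scale (adjusted p = 0.0109), ATP5F1A by 0.64 (adjusted p = 0.0137), NDUFV1 by 0.58 (adjusted p = 0.0386) and CYC1 by 0.52 (adjusted p = 0.0369). With the block UQCRC1 and ATP5F1A kept their calls (adjusted p = 0.0299 and 0.0404), and NDUFV1 and CYC1 had 0.0786 and 0.0857. In cluster cells alone they differed without a call, by -0.22 for UQCRC1, -0.29 for ATP5F1A, -0.22 for NDUFV1 and -0.26 for CYC1. Without Empty-V GSI replicate 1, 8 members were called, and without Empty-V DMSO replicate 2, 1 member. Without cluster DMSO replicate 1 it was 3, and without any of the other 5 arrays it was 2.

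The same pattern was described by correlating each gene with a trait over the same 8 arrays, all of the same cell line, at an absolute Pearson r above 0.8. For a trait of 1 in Empty-V cells with GSI and 0 in the other 3 groups, 29 members had r below -0.8 (36.2%), all of them core subunits, and COX7A2L had r above 0.8 (0.81), against backgrounds of 5.24% and 4.87%. The lowest r were those of NDUFA7 at -0.98, ATP5F1C at -0.96 and COX7B at -0.96. By complex these were 14 of 32 core subunits of complex I, 0 of 3 of complex II, 4 of 8 of complex III, 5 of 10 of complex IV and 6 of 15 of complex V. For a trait of 1 in all GSI arrays and 0 in all DMSO arrays, CYC1 had r below -0.8 (-0.81) and 0 members had r above 0.8, against backgrounds of 4.07% and 5.07%.

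Genes that build, supply or feed these complexes were read from lists chosen for this purpose. In Empty-V cells GSI lowered 3 of 16 complex I assembly factors (median -0.49), where 3.66% of all probe sets were called lower, the background for each list here. NDUFAF2, which acts late in complex I assembly, had a mean of 6.07 ± 0.53 with GSI, against 8.12 ± 0.05 with DMSO in Empty-V cells (SD, n = 2 each), a difference of -2.05 (limma adjusted p = 0.00191, 0.00438 with the block). NDUFAF4 differed by -0.92 (adjusted p = 0.0241) and TMEM186 by -0.61 (adjusted p = 0.0454). Of complex II and III assembly factors 2 of 10 were lower: BCS1L, which inserts the iron-sulfur protein of complex III, at -1.07 and UQCC2 at -1.01 (adjusted p = 0.0283 and 0.0418). Among complex IV assembly factors 3 of 19 were lower, COA3 at -0.84, COA7 at -0.71 and COA6 at -0.67, and of 3 genes for ATP synthase assembly ATPAF1, a chaperone of the head, was lower at -0.96 (adjusted p = 0.0153). The other head chaperone, ATPAF2, differed by 0.38 in Empty-V cells without a call and was called higher with GSI across both vectors, at 0.48 (adjusted p = 0.0364, 0.094 with the block). With the block NDUFAF2 and ATPAF1 kept their calls (adjusted p = 0.0415 for ATPAF1), and the other 7 had adjusted p of 0.0568 to 0.113. In cluster cells 0 genes of these 4 lists were called.

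Mitochondrial import had 8 of 22 genes lower in Empty-V cells with GSI (5 with the block), against the same background of 3.66%, among them TIMM13 at -1.67 (adjusted p = 0.00892), TIMM50 at -0.94 and TOMM5 at -0.89, with a median of -0.53. Of 17 genes for mitochondrial DNA maintenance and transcription 3 were lower (1 with the block, SLIRP), led by SLIRP, which stabilizes mitochondrial mRNAs. SLIRP had a mean of 11.97 ± 0.06 with GSI, against 13.27 ± 0.00 with DMSO in Empty-V cells (SD, n = 2 each, limma adjusted p = 0.00164). Under GSI it was 1.09 higher in cluster cells (adjusted p = 0.0274, 0.0861 with the block). Among 20 genes for carriers, cytochrome c and ubiquinone synthesis, VDAC1, a channel of the outer membrane, was the call. It differed by -0.80 in cluster cells (limma adjusted p = 0.0445, 0.135 with the block), where 0.606% of all probe sets were called lower. In Empty-V cells it differed by -0.75 (limma adjusted p = 0.0233, 0.0685 with the block). There, 1 of 20 genes was near the background share of 3.66%. None of 16 citric acid cycle genes and none of 8 regulators of mitochondrial biogenesis was called in Empty-V cells, with medians of -0.29 and -0.12. PPRC1, a coactivator of NRF1, differed by -0.68 (adjusted p = 0.0672) and MYC by -0.63 (adjusted p = 0.079).

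**Figure D4:**
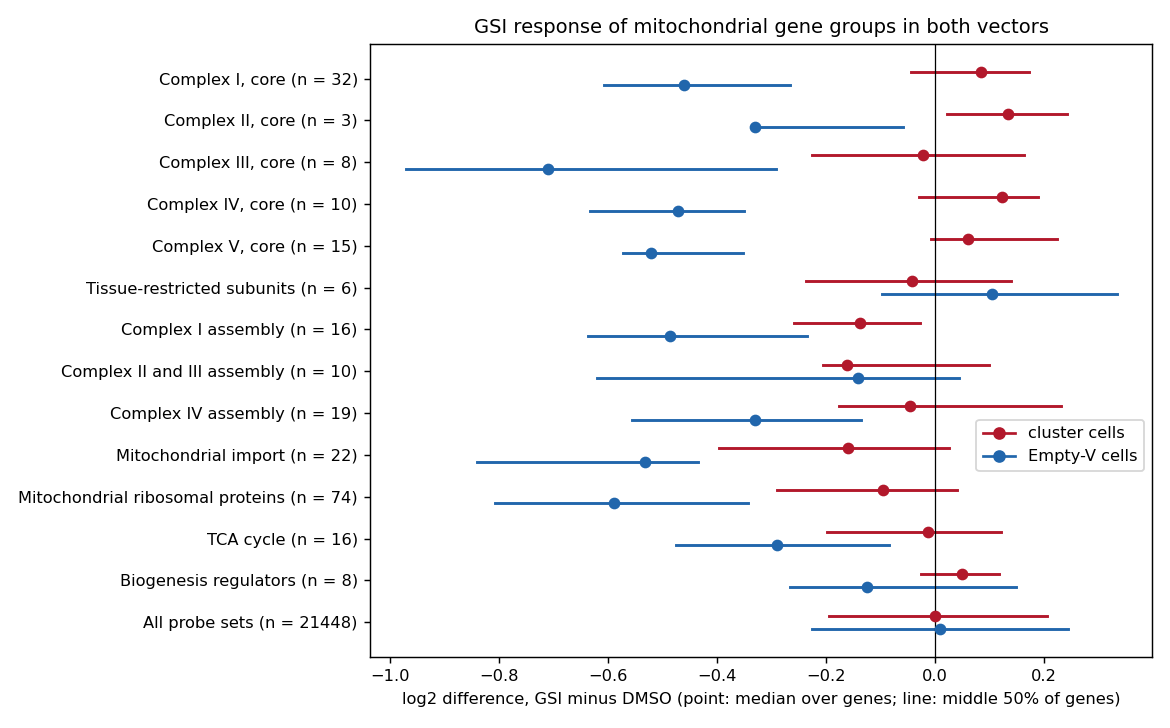
Median log2 difference between GSI and DMSO (points) with the middle 50% of genes (lines) for core subunits of each complex and for other mitochondrial gene lists, in cluster cells (red) and Empty-V cells (blue). Core medians in Empty-V cells lie between -0.71 and -0.33, those in cluster cells between -0.02 and 0.13, and all probe sets lie at 0.00 and 0.01.

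Values of mitochondrial ribosomal protein genes, whose ribosomes make the subunits encoded in mitochondrial DNA, are set beside those of the respiratory chain genes without a test of the difference. Of 74 such ribosomal genes 22 were called lower with GSI in Empty-V cells (8 with the block), against 3.66% of all probe sets, with a median of -0.59. In cluster cells their median was -0.10, and their GSI arrays lay below both DMSO arrays for 22 and above for 4, where the respiratory chain genes had 7 below and 19 above among 80, against 21.9% below and 22.8% above over all probe sets. Lower in Empty-V and higher in cluster cells without overlap were 1 of 74 ribosomal genes and 16 of 80 respiratory chain genes, against 3.45% of all probe sets. Other values were close. Under GSI, the median of cluster minus Empty-V was 0.375 over ribosomal genes and 0.402 over respiratory chain genes. For the difference of the GSI responses it was 0.515 and 0.462. Both Empty-V arrays with GSI were the lowest of all 8 for 34 of 74 ribosomal genes and 43 of 80 respiratory chain genes, against 10.1% of all probe sets. For the trait of 1 in Empty-V cells with GSI, 23 of 74 ribosomal genes and 29 of 80 respiratory chain genes had r below -0.8. The background was 5.24% of all probe sets. Low Empty-V GSI values were thus shared by both groups.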

How the data were processed

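RNA of 8 samples was hybridized to Clarion S Human arrays. The authors summarized probes to genes with SST-RMA, which corrects background and brings arrays to a common distribution, in Transcriptome Analysis Console, and deposited log2 values (21448 probe sets, 1.97 to 18.49), used here without further scaling. Gene names came from the platform annotation (17709 probe sets with 1 gene, 3739 with none). Positions and sequences came from RefSeq on GRCh38.p14, where all 80 members matched and 64 had a promoter window. The number of arrays, 2 a group, limits the precision.

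With limma 3.58.1 (lmFit, eBayes) in R 4.3.3, 4 group means were fitted over all 8 arrays (4 residual degrees of freedom, prior 5.29), with 6 comparisons and Benjamini-Hochberg adjustment over all probe sets at 0.05. Intervals are at 95%. The fit was tested on simulated data. Traits used the supplement's cutoff of 0.8 without its permutation test, in Python 3.11.15 (numpy 2.4.6, pandas 2.3.3, scipy 1.17.1, matplotlib 3.10.9). Members and lists were chosen with earlier results of these data known. Named genes are members past the threshold (up to 12 in each direction), the highest-mean and smallest-p member of each complex, isoform pairs, and up to 3 genes of each list.

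The set numbers of the labels and the 2 independent experiments of the supplement were read as a possible pairing. The main fit left it out, and the block alternative held it. Deviations of same-numbered arrays from their group means correlated at -0.240 to -0.192 over probe sets for all 6 pairs of groups. An effect shared by same-numbered arrays would give positive values. Alternatives were the block, a threshold of 0.1, no probe sets below 5.31, quantile normalization, a robust fit whose prior variance follows intensity, the 4 compared arrays alone, each array left out, an absolute r above 0.9 and Spearman correlation above 0.7.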

Additional observations from a re-analysis of the deposited data

How the results depend on the processing

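In Empty-V cells the 13 members called lower with GSI became 23 at a threshold of 0.1, 26 without dim probe sets, 34 with an intensity trend and a robust fit, 5 with only the 4 arrays compared, 6 with the set number as a block, and 0 to 12 without one array, where the median of -0.40 lay between -0.53 and -0.34. Over all probe sets the calls, 1601 in that comparison, also became 2599 at 0.1, 2359 without dim probe sets (72 members tested) and 2551 with the trend. The 5 members called higher in cluster cells under GSI became 12 at 0.1, 15 without dim probe sets, 25 with the trend (24 higher and COX7A2L lower), 3 with quantile normalization, 0 with 4 arrays, 0 with the block and 0 without any one array. Across both vectors 4 became 9 at 0.1, 10 without dim probe sets, 15 with the trend, 2 with the block, and 1 to 8 without one array. The difference of responses had 0 calls and 4 with the trend, and its median of 0.46 lay between 0.40 and 0.60 without one array, while the median response in cluster cells lay between -0.017 and 0.13. For the trait of all GSI arrays, 1 member became 0 at an absolute r above 0.9, 6 by Spearman correlation and 0 to 5 without one array, and for the trait that singles out Empty-V GSI arrays 30 became 12 at 0.9 and 20 to 40 without one array. The causes were not tested, except that leaving out an array or fitting 4 leaves fewer samples, and a lone array was assumed to vary like the other groups. Of 22 calls of named members, 8 kept theirs with the block, 20 with quantile normalization and 22 with the trend, and none changed direction under any setting run.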
